A study of Mus musculus with 24 samples.

Results

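Keratins are the proteins of the intermediate filaments of epithelial cells. The keratin genes described here are the protein-coding genes whose mouse symbol is Krt, a number and at most 1 further letter, with at least 50 reads in total over the 24 libraries. Of the 55385 genes counted in each library, 53 were protein-coding keratin genes, and 19 of these reached the minimum. Just inside it were Krt4 with 51 reads and Krt36 with 61 reads, and just outside it were Krt25 with 47 reads and Krt75 with 35 reads. Of the 19 genes, 8 lie on chromosome 11 and 11 on chromosome 15, where the acidic and the basic keratin genes are clustered.

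RNA was sequenced from the gastrocnemius, a muscle of the calf, of female C57BL/6J mice in 6 groups of 4 libraries. Young mice (3 to 6 months) were labelled sham or GFP, and old (21 to 24 months) and oldest-old mice (27 to 29 months) were labelled GFP or AAV-Kl. GFP groups were given AAV8-LP1-eGFP and AAV-Kl groups AAV8-LP1-mKlotho through the tail vein, at 3e8 vector genomes per mouse, 14 days before the muscle was taken. Both vectors use LP1, a promoter active in the liver, so the GFP groups are vector controls rather than untreated mice. How the young sham mice were treated is not given in the sources used here. The study's account of the sequencing does not name this group, so its sex, strain and age range are taken from the rest of the study.

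Keratin filaments are built from pairs of an acidic and a basic keratin, and each epithelium has its own pairs. Krt5 and Krt14 are the pair of the basal layer of the epidermis, Krt1 and Krt10 that of the layers above it, and Krt8 and Krt18 that of simple epithelia such as ducts, glands and liver cells, while the hair shaft and its inner root sheath have keratins of their own. Skeletal muscle fibres make their intermediate filaments mainly from desmin.

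The reads that fell on genes numbered 36415886 in the smallest and 59733985 in the largest library, with a median of 49486060.5. The fibre markers Acta1, Ckm, Myh1, Myh2, Myh4, Tnnt3, Myl1 and Des, the genes of actin, creatine kinase, myosins, troponin and desmin, were present in every library and together held 4971951 to 7813102 reads. The 19 keratin genes together held 320 reads in young GFP 4, the lowest library, and 18853 reads in young GFP 3, the highest, with a median of 1058.5 over the 24 libraries. Levels are given as reads or as CPM, reads per 1e6 reads on genes after scaling of library sizes. A count of 0 allows up to 3 reads, which is 0.0467 to 0.0846 CPM depending on the library. Such limits and the 95% intervals given with shares (Wilson) and ratios (exact) cover counting error only.

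Several libraries stood apart before any group was compared. Lor encodes loricrin, a protein of the cornified layer of the epidermis that is not a keratin, and it had 2987 reads in young GFP 3, 850 in young sham 4, 530 in young GFP 1, 283 in old AAV-Kl 2 and 101 in oldest-old AAV-Kl 4. The other 19 libraries had at most 29 reads of Lor. Epcam, a surface protein of simple and glandular epithelium, had 360 reads in young sham 4, 193 in young sham 2, 119 in old AAV-Kl 2, 73 in oldest-old AAV-Kl 2 and 69 in young GFP 3, and at most 25 reads elsewhere. Alb, the albumin gene of liver cells, had 38525 reads in old GFP 1, 5062 in old AAV-Kl 4 and 2574 in old GFP 4, and at most 826 reads elsewhere. Results that rest on these libraries are given with and without them, and these alternatives were chosen after seeing the data.

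**Figure D1:**
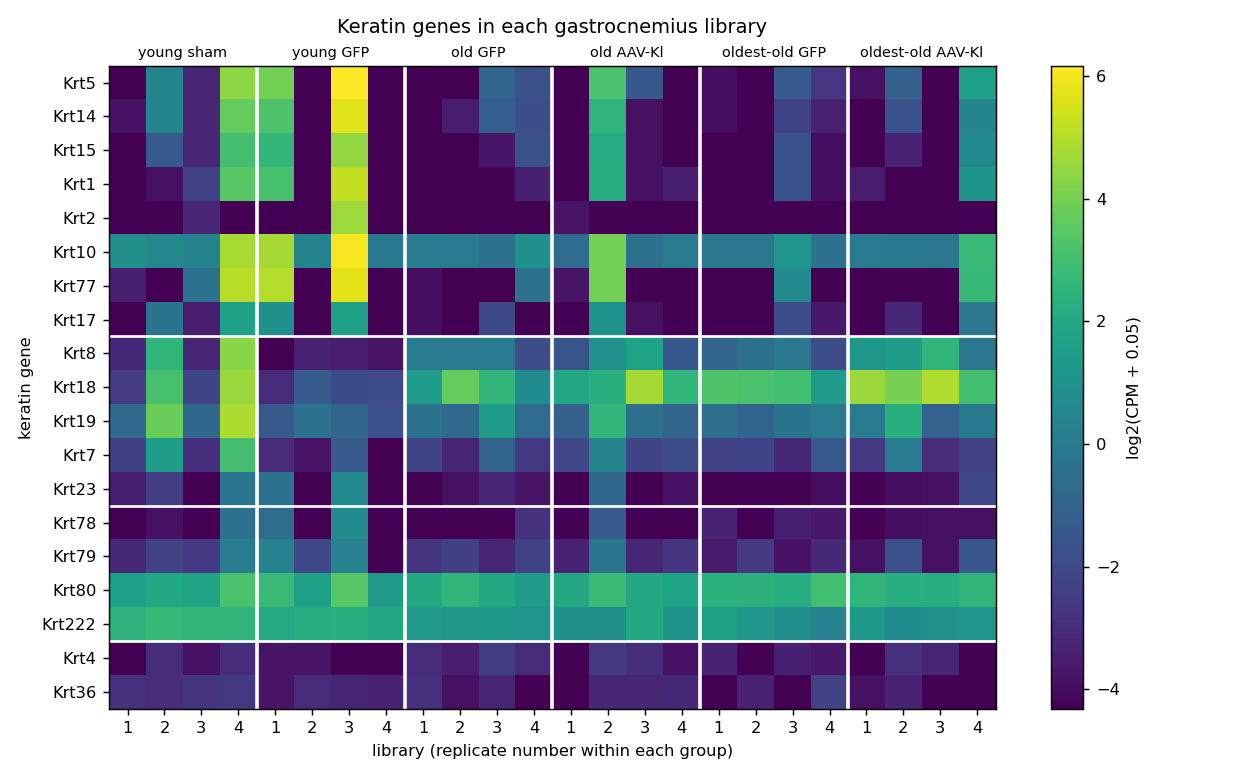
Level of each of the 19 keratin genes in each library, as log2 of CPM plus 0.05 (colour), with libraries in columns by group and replicate number and genes ordered by class. Epidermal genes are bright in young GFP 1 and 3, young sham 4, oldest-old AAV-Kl 4 and old AAV-Kl 2, and Krt18 is bright in a different set of libraries.

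The epidermal keratins were described first, beginning with those of the basal layer. Krt5, the basic keratin of basal keratinocytes, had 0, 68, 3 and 1080 reads in young sham 1 to 4, 676, 0, 3869 and 0 in young GFP 1 to 4, and 0, 0, 17 and 11 in old GFP 1 to 4. In old AAV-Kl 1 to 4 it had 0, 461, 16 and 0 reads, in oldest-old GFP 1 to 4 it had 1, 0, 16 and 7, and in oldest-old AAV-Kl 1 to 4 it had 1, 25, 0 and 153. Young GFP 3, young sham 4, young GFP 1, old AAV-Kl 2 as well as oldest-old AAV-Kl 4 were thus the high libraries, and 9 of the 24 libraries had no read of Krt5. Its acidic partner Krt14 had 1, 69, 3 and 680 reads in young sham 1 to 4, 405, 0, 2685 and 0 in young GFP 1 to 4, and 0, 2, 14 and 10 in old GFP 1 to 4. The same gene had 0, 281, 1 and 0 reads in old AAV-Kl 1 to 4, 1, 0, 8 and 3 in oldest-old GFP 1 to 4, and 0, 16, 0 and 69 in oldest-old AAV-Kl 1 to 4. Krt14 was high in the same libraries as Krt5, and young sham 2 equalled oldest-old AAV-Kl 4 with 69 reads. Krt15, an acidic basal keratin that also marks cells of the hair follicle bulge, had 1172 reads in young GFP 3, 427 in young sham 4, 261 in young GFP 1, 222 in old AAV-Kl 2, 79 in oldest-old AAV-Kl 4 and at most 17 in any other library. In every group the libraries of these 3 genes ran from near 0 upward, so that the groups overlapped.

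Above the basal layer, Krt1, the basic keratin of differentiating keratinocytes, had 0, 1, 8 and 571 reads in young sham 1 to 4, 369, 0, 1991 and 0 in young GFP 1 to 4, and 0, 0, 0 and 2 in old GFP 1 to 4. It had 0, 230, 1 and 2 reads in old AAV-Kl 1 to 4, 0, 0, 12 and 1 in oldest-old GFP 1 to 4, and 2, 0, 0 and 109 in oldest-old AAV-Kl 1 to 4. Apart from those 5 libraries with at least 100 reads, none had more than 12. Krt77, a basic keratin that is associated with sweat gland ducts and the upper epidermis, had 2, 0, 35 and 1727 reads in young sham 1 to 4, 1368, 0, 2904 and 0 in young GFP 1 to 4, and 1, 0, 0 and 31 in old GFP 1 to 4. Its reads numbered 1, 768, 0 and 0 in old AAV-Kl 1 to 4, 0, 0, 70 and 0 in oldest-old GFP 1 to 4, and 0, 0, 0 and 332 in oldest-old AAV-Kl 1 to 4. The 5 high libraries of Krt5 were again the highest, with oldest-old GFP 3 next.

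Krt10, the acidic partner of Krt1, had reads in every library. It stood at 1.76, 1.39, 1.24 and 28.1 CPM in young sham 1 to 4, at 27.01, 1.23, 67.1 and 0.894 CPM in young GFP 1 to 4, and at 1.05, 0.943, 0.733 and 1.85 CPM in old GFP 1 to 4. Its level was 0.583, 15.9, 0.679 and 0.9899 CPM in old AAV-Kl 1 to 4, 0.844, 0.844, 2.25 and 0.701 CPM in oldest-old GFP 1 to 4, and 0.934, 0.887, 0.882 and 6.60 CPM in oldest-old AAV-Kl 1 to 4. In the 19 libraries with few Lor reads, Krt10 ranged from 25 to 103 reads, whereas Krt1 reached at most 12, Krt15 at most 17, Krt5 at most 68, Krt14 at most 69 and Krt77 at most 70. In each of these 19 libraries Krt10 was therefore present at a low level, and reads of the other epidermal keratins were at or near 0 in most of them. Exons of Krt10 overlap those of the antisense gene Gm11940 over 6.91% of their length, and counts without regard to strand cannot assign reads there.

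Krt2, a basic keratin of the uppermost living epidermal layers of tail, ear and sole skin, was found in essentially 1 library. It had 1321 reads in young GFP 3, 3 in young sham 3, 1 in old AAV-Kl 1 and 0 in the remaining 21 libraries, so that 99.7% of its reads (95% interval 99.2 to 99.9%) lay in young GFP 3. Krt17, an acidic keratin of hair follicles, glands and stressed epidermis, had 168 reads both in young GFP 3 and in young sham 4, 101 in old AAV-Kl 2, 80 in young GFP 1, 44 in oldest-old AAV-Kl 4 and 40 in young sham 2. Elsewhere Krt17 did not exceed 10 reads, and 11 libraries had none.

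The summed level of the 8 epidermal keratins Krt5, Krt14, Krt15, Krt1, Krt2, Krt10, Krt77 and Krt17 was 1.83, 5.17, 2.37 and 116.95 CPM in young sham 1 to 4, 100.95, 1.23, 330.2 and 0.894 CPM in young GFP 1 to 4, and 1.08, 0.980, 1.83 and 3.34 CPM in old GFP 1 to 4. It was 0.630, 57.0, 1.08 and 1.03 CPM in old AAV-Kl 1 to 4, 0.879, 0.844, 5.04 and 0.919 CPM in oldest-old GFP 1 to 4, and 0.993, 1.67, 0.882 and 21.9 CPM in oldest-old AAV-Kl 1 to 4. The 5 libraries with at least 100 reads of Lor held 32132 of the 33723 epidermal keratin reads, or 95.3% (95% interval 95.1 to 95.5%). Among the other 19 libraries the sum lay between 0.630 and 5.17 CPM. Libraries at both extremes were found within both young groups and within the AAV-Kl groups of either age, and the ranges of the 6 groups overlapped.

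**Figure D2:**
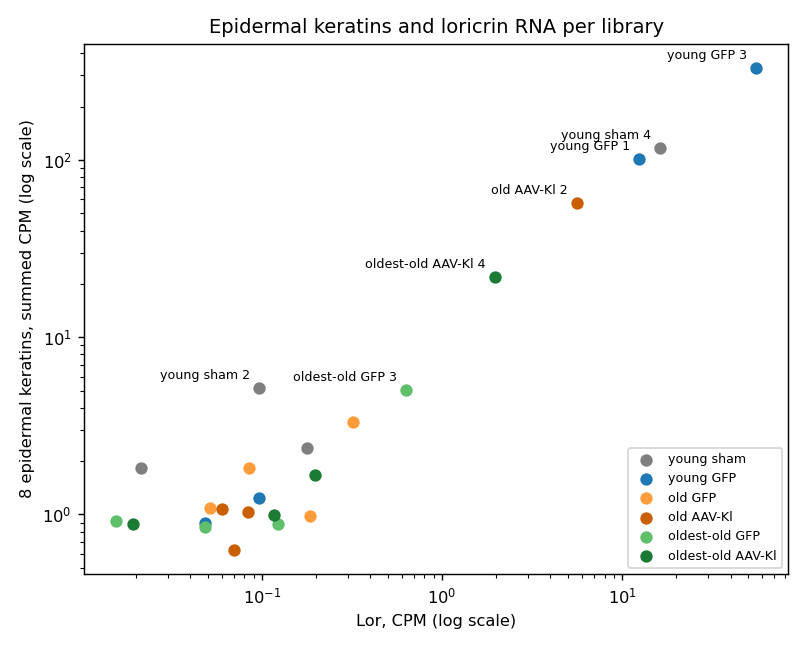
Summed level of the 8 epidermal keratins (CPM, log axis) against the level of Lor (CPM, log axis), 1 point per library, coloured by group. The 5 libraries with at least 100 reads of Lor lie at 21.9 CPM of epidermal keratins or more, and the other 19 at 5.17 CPM or less.

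A list of 20 epidermal genes other than keratins was read in the same libraries. Their summed level was 27.6, 39.0, 35.9 and 156.7 CPM in young sham 1 to 4, 129.95, 33.4, 368.4 and 65.4 CPM in young GFP 1 to 4, and 49.2, 50.7, 47.2 and 51.7 CPM in old GFP 1 to 4. It was 50.6, 124.5, 41.8 and 42.0 CPM in old AAV-Kl 1 to 4, 52.2, 46.5, 52.6 and 59.6 CPM in oldest-old GFP 1 to 4, and 53.5, 48.7, 56.8 and 63.7 CPM in oldest-old AAV-Kl 1 to 4. For 15 of the 20 genes, among them Lor, the 5 highest libraries were the same 5, and 17 of the 20 were highest in young GFP 3. Of the 20 genes, 10 had a read in every library. Trp63, a transcription factor of basal keratinocytes, was the most abundant of the list with 29769 reads, and its 2 highest libraries were young GFP 4 at 52.8 CPM and oldest-old AAV-Kl 3 at 42.4 CPM, where epidermal keratins were low. Dsp, the gene of the desmosome protein desmoplakin, followed the keratins more closely, with 1530 reads in young GFP 3, 709 in young sham 4, 528 in old AAV-Kl 2, 494 in young GFP 1, 122 in oldest-old AAV-Kl 4, 96 in young sham 2 and at most 32 in the rest. What part skin cells had in the keratin levels of these libraries was not tested, and in bulk RNA more cells of a type cannot be told apart from more RNA per cell.

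Among the libraries with many keratin reads, the proportions of the epidermal genes were similar for some genes and differed for others. The ratio of Krt1 reads to Krt5 reads was 0.529 (95% interval 0.477 to 0.586) in young sham 4, 0.546 (0.480 to 0.621) in young GFP 1, 0.515 (0.487 to 0.543) in young GFP 3, 0.499 (0.424 to 0.586) in old AAV-Kl 2 and 0.712 (0.552 to 0.917) in oldest-old AAV-Kl 4. The ratio of Lor to Krt5 was 0.787, 0.784, 0.772, 0.614 and 0.660 in the same order. Krt77 differed more, with a ratio to Krt5 of 0.751 (0.715 to 0.788) in young GFP 3 against 1.60 (1.48 to 1.73) in young sham 4, 2.02 (1.84 to 2.22) in young GFP 1, 1.67 (1.48 to 1.87) in old AAV-Kl 2 and 2.17 (1.79 to 2.65) in oldest-old AAV-Kl 4. The ratio of Krt2 to Krt5 was 0.341 (0.321 to 0.364) in young GFP 3, while the 0 counts of Krt2 in young GFP 1 and young sham 4 allowed ratios up to 0.00547 and 0.00342. Young sham 2 was unlike all of these, with a Krt14 to Krt5 ratio of 1.01 (0.715 to 1.44) but 1 read of Krt1, none of Krt77 and 5 of Lor. Krt5, on which these ratios rest, shares 5.87% of its exon length with Gm44323 on the other strand, and had 6404 reads without regard to strand against 7326 in the sum of the strand columns.

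Because the epidermal genes were high in the same libraries, the bases before their starts are shown for the genes on which this pattern and its exception Krt2 rest. Of the 19 keratin genes, 12 had an entry in the table of promoters from RefSeq (GRCm38.p6), and the 50 bases before each start were searched for the letters TATAA or ATAAA on either strand. Matches are in capitals, including overlapping ones, and 8 of the 12 had a match, compared with 12.73% of the 32851 promoters in the table. The windows are chr15:101712906-101712955 for Krt5, chr11:100206031-100206080 for Krt14, chr11:99389365-99389414 for Krt10, chr15:101869706-101869755 for Krt77 and chr15:101818170-101818219 for Krt2, all on the minus strand, and each is written 5′ to 3′ on the strand of its gene.
Krt5: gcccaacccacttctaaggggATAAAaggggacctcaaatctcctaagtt
Krt14: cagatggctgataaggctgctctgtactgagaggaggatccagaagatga
Krt10: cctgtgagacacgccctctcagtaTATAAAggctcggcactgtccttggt
Krt77: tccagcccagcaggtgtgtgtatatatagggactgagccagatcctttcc
Krt2: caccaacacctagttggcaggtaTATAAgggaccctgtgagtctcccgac
A match describes the letters in this window and is not evidence of a site in use, and a RefSeq start can differ from the GENCODE start of the same gene, as it does for Krt14, whose window lies inside the GENCODE gene. Krt14 and Krt77 had no match to the letters searched, although the Krt77 window holds a run of alternating t and a that the search did not cover.

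Keratins of simple epithelium behaved differently. Krt18, the acidic keratin of simple epithelia (ENSMUSG00000023043.7, chr15:102028180-102032027, plus strand), had 0.129, 8.73, 0.178 and 24.2 CPM in young sham 1 to 4, 0.0702, 0.338, 0.205 and 0.217 CPM in young GFP 1 to 4, and 2.63, 12.8, 5.89 and 1.69 CPM in old GFP 1 to 4. It had 3.75, 5.002, 26.8 and 5.90 CPM in old AAV-Kl 1 to 4, 9.68, 8.95, 8.09 and 2.69 CPM in oldest-old GFP 1 to 4, and 24.5, 16.1, 29.9 and 7.98 CPM in oldest-old AAV-Kl 1 to 4. The 4 young GFP libraries and young sham 1 and 3 had at most 14 reads of Krt18, and the other 18 libraries had at least 74, so that young GFP lay below each of the 4 older groups without overlap while young sham spanned both levels. Group means were 8.31 ± 11.3 CPM (SD, n = 4) in young sham, 0.208 ± 0.109 in young GFP, 5.75 ± 5.03 in old GFP, 10.4 ± 11.01 in old AAV-Kl, 7.36 ± 3.17 in oldest-old GFP and 19.6 ± 9.62 in oldest-old AAV-Kl. In order of these means, only the step from young GFP to old GFP had no overlap between neighbouring groups.

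Krt8, the basic partner of Krt18 (ENSMUSG00000049382.10, chr15:101996698-102004482, minus strand), had 0.0644, 5.77, 0.0592 and 19.8 CPM in young sham 1 to 4, 0, 0.0482, 0.0373 and 0.0242 CPM in young GFP 1 to 4, and 0.911, 0.943, 0.959 and 0.229 CPM in old GFP 1 to 4. It had 0.280, 1.95, 3.35 and 0.316 CPM in old AAV-Kl 1 to 4, 0.475, 0.676, 0.851 and 0.234 CPM in oldest-old GFP 1 to 4, and 2.32, 2.84, 5.85 and 0.854 CPM in oldest-old AAV-Kl 1 to 4. Young GFP again lay below the 4 older groups without overlap, with 0 to 2 reads per library. Means were 6.42 ± 9.30 CPM (SD, n = 4) in young sham, 0.0274 ± 0.0208 in young GFP, 0.761 ± 0.355 in old GFP, 1.48 ± 1.48 in old AAV-Kl, 0.559 ± 0.266 in oldest-old GFP and 2.96 ± 2.10 in oldest-old AAV-Kl. Exons of Krt8 share 5.16% of their length with Gm36026 on the other strand, and reads that map to several places, such as near copies of a gene, were not counted.

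Per length, RNA of Krt18 was more abundant than that of Krt8 in each library where Krt8 had at least 10 reads, but not in the same proportion. The ratio of Krt18 to Krt8 per kilobase of exon was 2.06 (95% interval 1.78 to 2.40) in young sham 2 and 1.67 (1.53 to 1.81) in young sham 4. It was 3.93, 18.5, 8.38 and 10.1 in old GFP 1 to 4, 18.3, 3.49, 10.9 and 25.4 in old AAV-Kl 1 to 4, 27.8, 18.1, 12.96 and 15.7 in oldest-old GFP 1 to 4, and 14.4, 7.71, 6.97 and 12.7 in oldest-old AAV-Kl 1 to 4. Both young sham libraries had lower ratios than any of the 16 older libraries, of which old AAV-Kl 2 (2.75 to 4.45) and old GFP 1 (2.86 to 5.48) came nearest. In young GFP 1 to 4, with 3, 14, 11 and 9 reads of Krt18 and 0, 2, 2 and 1 reads of Krt8, the ratio could not be determined usefully.

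For comparison with the epidermal genes, the same stretch before the start is given for this pair, at chr15:102028166-102028215 on the plus strand for Krt18 and chr15:102004343-102004392 on the minus strand for Krt8. Krt18 had a match to the letters searched and Krt8 had none. These windows come before the RefSeq starts, and by the GENCODE coordinates given above that of Krt8 lies inside the gene and that of Krt18 overlaps its start.
Krt18: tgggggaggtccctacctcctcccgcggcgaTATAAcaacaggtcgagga
Krt8: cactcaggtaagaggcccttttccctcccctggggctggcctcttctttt

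Krt19, an acidic keratin of ducts and other simple epithelia that lacks most of the usual tail domain, had 0.558, 14.1, 0.533 and 29.4 CPM in young sham 1 to 4, 0.328, 0.724, 0.485 and 0.242 CPM in young GFP 1 to 4, and 0.739, 0.555, 2.76 and 0.595 CPM in old GFP 1 to 4. It had 0.420, 6.02, 0.679 and 0.463 CPM in old AAV-Kl 1 to 4, 0.615, 0.458, 0.763 and 0.919 CPM in oldest-old GFP 1 to 4, and 0.973, 4.78, 0.441 and 0.893 CPM in oldest-old AAV-Kl 1 to 4. Young sham 4 and 2, old AAV-Kl 2, oldest-old AAV-Kl 2 and old GFP 3 were the high libraries, and unlike Krt18, Krt19 overlapped between young GFP and every other group. Krt7, a basic keratin of ducts and glands, had 437 reads in young sham 4, 144 in young sham 2, 63 in old AAV-Kl 2, 57 in oldest-old AAV-Kl 2 and at most 22 in each of the other libraries. Krt23, an acidic keratin of simple epithelia, had 85 reads in young GFP 3, 43 in young sham 4, 31 in young GFP 1, 27 in old AAV-Kl 2, 10 in oldest-old AAV-Kl 4 and at most 7 elsewhere. Krt23 was thus high in the libraries rich in Lor, and Krt7 in young sham 2 and 4, oldest-old AAV-Kl 2 and old AAV-Kl 2, which were rich in Epcam.

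**Figure D3:**
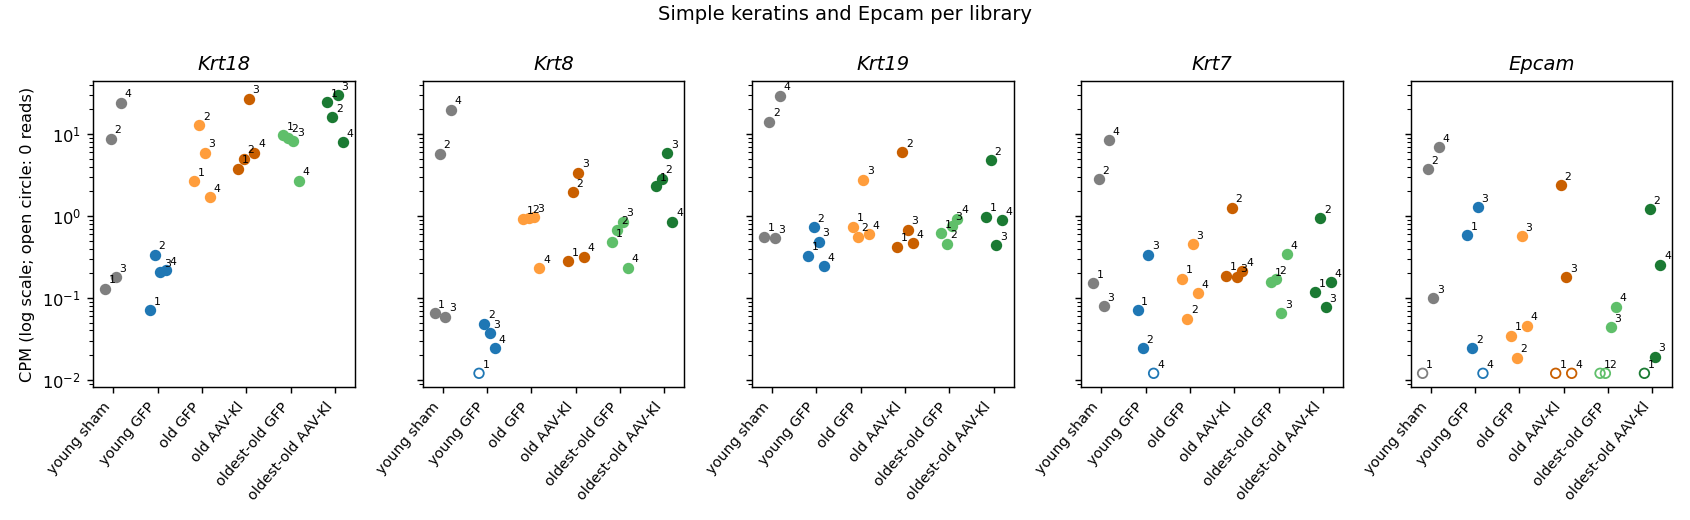
Levels of Krt18, Krt8, Krt19, Krt7 and Epcam in each library (CPM, log axis), by group, with the replicate number beside each point and an open circle for 0 reads. Krt18 and Krt8 were low in all 4 young GFP libraries, and Krt19, Krt7 and Epcam were high in young sham 2 and 4.

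The summed level of Krt7, Krt8, Krt18, Krt19 and Krt23 was 0.945, 31.5, 0.848 and 82.6 CPM in young sham 1 to 4, 1.19, 1.13, 2.65 and 0.483 CPM in young GFP 1 to 4, and 4.45, 14.4, 10.1 and 2.66 CPM in old GFP 1 to 4. In old AAV-Kl 1 to 4 it was 4.64, 14.8, 31.0 and 6.91 CPM, in oldest-old GFP 1 to 4 it was 10.9, 10.3, 9.77 and 4.21 CPM, and in oldest-old AAV-Kl 1 to 4 it was 27.9, 24.6, 36.3 and 10.1 CPM. Young sham 4 and oldest-old AAV-Kl 3 were the highest libraries. Median sums were 16.2 CPM in young sham, 1.16 in young GFP, 7.29 in old GFP, 10.8 in old AAV-Kl, 10.01 in oldest-old GFP and 26.3 in oldest-old AAV-Kl, and without Krt18, the most abundant of them, they were 11.8, 0.960, 1.70, 2.61, 1.41 and 4.89 CPM. Group medians of the epidermal sum were 3.77, 51.1, 1.46, 1.06, 0.899 and 1.33 CPM in the same order of groups.

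**Figure D4:**
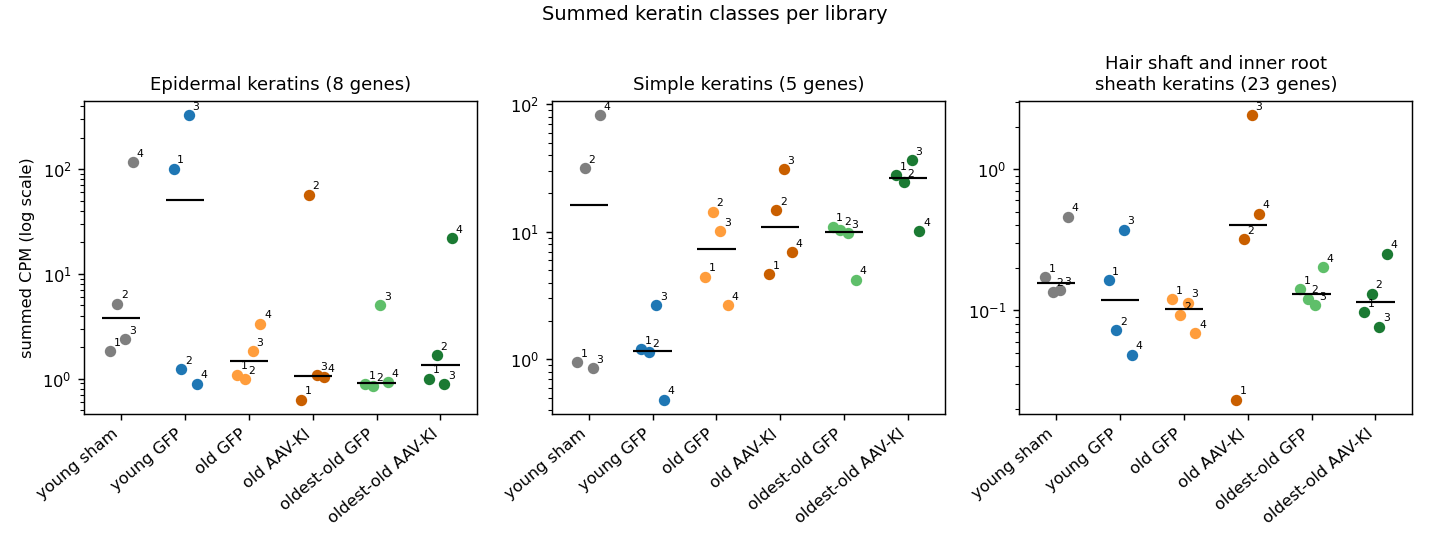
Summed CPM (log axis) of the epidermal, simple, and hair shaft and inner root sheath keratins in each library, by group, with replicate numbers beside the points and a bar at the group median. Within a group the epidermal sum ranged up to 330.2 CPM in young GFP, and the simple sum was lowest in young GFP.

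Other epithelial genes were read beside the simple keratins. The junction genes Epcam, Cdh1, Cldn3, Cldn4 and Cldn7 together had 11.2 and 20.9 CPM in young sham 2 and 4, 8.03 CPM in old AAV-Kl 2, 7.22 CPM in young GFP 3, 3.30 CPM in oldest-old AAV-Kl 2, 3.00 CPM in young GFP 1 and 2.57 CPM in old GFP 3, and from 0.249 to 1.75 CPM in the other libraries. Their most abundant gene was Cdh1, the gene of E-cadherin, with 1797 reads in total. Oldest-old AAV-Kl 3 had the most Krt18 reads of any library, 1561, and only 1 read of Epcam and none of Cldn4, whereas young sham 4, with 1266 reads of Krt18, had 360 of Epcam and 207 of Cldn4. Csn3, the gene of the milk protein kappa-casein and the most abundant of 5 mammary genes with 576 reads, had 225 reads in young sham 4, 171 in old AAV-Kl 2, 95 in young sham 2, 26 in oldest-old GFP 1, 24 in oldest-old AAV-Kl 2, 14 in oldest-old GFP 4, 13 in oldest-old AAV-Kl 4 and at most 3 in the others. Csn2, that of beta-casein, was found mainly in oldest-old GFP 1, with 92 reads.

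Liver genes were read because liver cells also contain Krt8 and Krt18. The sum of 10 liver genes was 896.2 CPM in old GFP 1, 139.6 CPM in old AAV-Kl 4, 90.5 CPM in old GFP 4, 23.1 and 16.1 CPM in young sham 4 and 2, 18.2 CPM in old AAV-Kl 1 and at most 7.05 CPM in the other libraries, with Alb as the most abundant gene. Krt18 stood at 2.63 CPM in old GFP 1 and at 1.69 CPM in old GFP 4, below the 12.8 and 5.89 CPM of old GFP 2 and 3, which had 153 and 32 reads of Alb. In other groups the order was different: old AAV-Kl 4 had 5.90 CPM of Krt18, above old AAV-Kl 1 and 2 and below old AAV-Kl 3, and young sham 4 and 2, with more liver RNA than young sham 1 and 3, had 24.2 and 8.73 CPM of Krt18 against 0.129 and 0.178 CPM. Msln, a marker of mesothelium and the most abundant of 4 such genes with 549 reads, had 8 to 50 reads in every library. Upk1b, another of them, had 5 reads in total. The sebaceous gland genes, led by Mc5r with 5607 reads, summed to 4.59 to 8.98 CPM, and the melanocyte genes, led by Dct with 688 reads, to 0.653 to 1.48 CPM. Of these lists, only the liver list (9 of 10 higher in old GFP than in young GFP, as given below) and Msln (higher in oldest-old GFP mice, compared with young GFP mice, log2 fold change 1.48, SE 0.3996) had a gene called in any comparison, and the mammary, sebaceous, melanocyte, junction and follicle lists had none. In the fibre list, Myh1 and Des were called higher and Myh4 lower between the same groups. The part of these cell types in the levels of Krt18 and Krt8 was not tested.

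Hair keratins were rare. The 23 keratin genes of the hair shaft, inner root sheath and companion layer had 319 reads in total, and of these only Krt36, an acidic hair keratin, reached the minimum, with 0 to 10 reads per library. Old AAV-Kl 3 held 121 of the 319 reads, or 37.9% (95% interval 32.8 to 43.4%), and had reads of 17 of the 23 genes, while no other library had more than 24 reads. Summed levels were 0.172, 0.136, 0.138 and 0.458 CPM in young sham 1 to 4, 0.164, 0.0724, 0.373 and 0.0483 CPM in young GFP 1 to 4, and 0.120, 0.0925, 0.113 and 0.0687 CPM in old GFP 1 to 4. They were 0.0233, 0.319, 2.42 and 0.484 CPM in old AAV-Kl 1 to 4, 0.141, 0.121, 0.109 and 0.202 CPM in oldest-old GFP 1 to 4, and 0.0973, 0.131, 0.0767 and 0.252 CPM in oldest-old AAV-Kl 1 to 4.

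Single hair keratins of old AAV-Kl 3 were named after their values were seen. Krt35, an early keratin of the hair shaft, had 27 of its 29 reads there, and Krt71, Krt72 and Krt73, basic keratins of the inner root sheath, had 15, 12 and 10 reads there and none in any other library. Their acidic counterparts Krt28 and Krt27 had 10 and 7 reads in old AAV-Kl 3. Krt25, another of these, had 15 reads in old AAV-Kl 3 but also 15 in old AAV-Kl 4 and 12 in oldest-old AAV-Kl 4. Tchh, which encodes trichohyalin of the inner root sheath, had 34 reads in old AAV-Kl 3 and at most 21 elsewhere. The list of 62 follicle genes other than keratins, of which Tchh was the most abundant and 46 had no read in any library, summed to 1.54 CPM in old AAV-Kl 3, 1.31 CPM in young GFP 3 and at most 0.757 CPM in the others. Young GFP 3 differed from old AAV-Kl 3 in having 30 reads of Krtap3-2, a keratin-associated protein of the hair shaft, and 17 of the transcription factor Foxn1, against 0 and 2. In old AAV-Kl 3 the epidermal keratins had 34 reads of Krt10, 16 of Krt5, 1 each of Krt14, Krt15, Krt1 and Krt17, and none of Krt77 or Krt2.

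Of the remaining keratin genes, Krt80 and Krt222 were spread more evenly, with 9.31% and 8.72% of their reads in the highest library, against 20.6% for Krt79 and 47.6% for Krt78. Krt80, a basic keratin found in many epithelia, had 2.99, 3.81, 3.49 and 8.98 CPM in young sham 1 to 4, 6.93, 3.04, 10.7 and 2.44 CPM in young GFP 1 to 4, and 4.14, 5.85, 4.004 and 2.72 CPM in old GFP 1 to 4. It had 3.94, 7.25, 3.99 and 3.31 CPM in old AAV-Kl 1 to 4, 5.10, 5.33, 4.54 and 7.91 CPM in oldest-old GFP 1 to 4, and 5.82, 5.06, 4.79 and 5.92 CPM in oldest-old AAV-Kl 1 to 4. Within young sham, young GFP and old AAV-Kl, the libraries rich in Lor had the highest levels. In oldest-old AAV-Kl the library rich in Lor was also highest, by a narrow gap (5.92 against 5.82 CPM). All groups overlapped. Means were 4.82 ± 2.79 CPM (SD, n = 4) in young sham, 5.78 ± 3.85 in young GFP, 4.18 ± 1.28 in old GFP, 4.62 ± 1.78 in old AAV-Kl, 5.72 ± 1.499 in oldest-old GFP and 5.40 ± 0.558 in oldest-old AAV-Kl. Krt80 shares 4.11% of its exon length with the antisense gene Gm35853, which had 556 reads.

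Krt222, a keratin-like gene of the acidic cluster (ENSMUSG00000035849.14, chr11:99232761-99244085, minus strand), had 5.54, 6.41, 6.19 and 5.71 CPM in young sham 1 to 4, 4.26, 4.68, 5.05 and 3.86 CPM in young GFP 1 to 4, and 2.46, 2.28, 2.40 and 2.22 CPM in old GFP 1 to 4. It had 1.87, 1.75, 4.13 and 2.09 CPM in old AAV-Kl 1 to 4, 3.04, 2.24, 1.79 and 1.199 CPM in oldest-old GFP 1 to 4, and 2.39, 1.69, 1.94 and 2.15 CPM in oldest-old AAV-Kl 1 to 4. The young sham libraries were highest, each above each young GFP library, and young GFP lay above the older groups without overlap except for old AAV-Kl 3. Means were 5.96 ± 0.405 CPM (SD, n = 4) in young sham, 4.46 ± 0.514 in young GFP, 2.34 ± 0.109 in old GFP, 2.46 ± 1.12 in old AAV-Kl, 2.07 ± 0.777 in oldest-old GFP and 2.04 ± 0.300 in oldest-old AAV-Kl. Its levels did not follow Lor, since young GFP 1 and 3 had 4.26 and 5.05 CPM against 4.68 and 3.86 CPM in young GFP 2 and 4. Krt79 and Krt78, with at most 65 and 88 reads per library, both had the most reads in young GFP 3, and Krt4, a keratin of mucosa, had 0 to 6 reads per library.

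Per kilobase of exon, the median level over the 24 libraries was highest for Krt18, at 4.10 CPM per kilobase, ahead of Krt80 and Krt222 at 0.730 and 0.728, Krt10 at 0.482, Krt8 at 0.390 and Krt19 at 0.349. For Krt5 the median was 0.0383 CPM per kilobase and for Krt14 it was 0.0238, while Krt77 and Krt2 had a median of 0. Of the 19 genes, 5 had a read in every library (Krt18, Krt10, Krt80, Krt222 and Krt19), 11 had the most reads in young GFP 3 alone and 3 in young sham 4 alone, and Krt17 had equal reads in these libraries.

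The groups were compared by edgeR's quasi-likelihood test with Benjamini-Hochberg adjustment over the 17803 genes that passed the filter on low counts, and a gene was called at an adjusted p under 0.05. Of the 19 keratin genes 16 passed this filter, and Krt2, Krt36 and Krt4 did not. Genes whose reads lay in a few libraries passed it through those libraries, and the numbers of called genes describe these 16 only. Old GFP and oldest-old GFP were both compared with the same young GFP libraries, and each AAV-Kl group with a GFP group of its age, so these comparisons share libraries.

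The first comparison asked how muscle of old GFP mice differed from that of young GFP mice. In old GFP mice, the simple keratin Krt18 was higher than in young GFP mice, at 1.69 to 12.8 against 0.0702 to 0.338 CPM, and Krt222 was lower, at 2.22 to 2.46 against 3.86 to 5.05 CPM. The log2 fold change was 4.79 (SE 1.32) for Krt18 and -0.93 (SE 0.241) for Krt222, with adjusted p of 0.0419 and 0.0300 by edgeR's quasi-likelihood test with Benjamini-Hochberg adjustment. Krt8 was higher in each of the 4 old GFP libraries than in each of the 4 young GFP ones, with a log2 fold change of 4.66 (SE 1.70). It did not pass the test (edgeR with Benjamini-Hochberg adjustment, adjusted p = 0.126). Young sham, outside this comparison, spanned 0.129 to 24.2 CPM of Krt18 and 0.0592 to 19.8 CPM of Krt8, and overlapped old GFP in both. In Krt222 young sham, at 5.54 to 6.41 CPM, lay above old GFP. Krt10 had a log2 fold change of -4.39 (SE 1.42) with overlapping groups (edgeR with Benjamini-Hochberg adjustment, adjusted p = 0.0818). Of 16 keratin genes tested, 1 was called higher and 1 lower, compared with 3.21% and 1.49% of all genes tested. At an unadjusted p under 0.05 there were 2 higher and 11 lower, compared with 19.1% of all genes tested in either direction. The groups did not overlap for 3 of the 16, compared with 15.6% of all genes tested. The median log2 fold change was -4.49 over the 16 keratin genes, partly set by the filter as said above, and 0.00 over all genes tested. DESeq2 called 5 of the 16 and 1226 of the 17803 genes. Over the 20 epidermal genes other than keratins the median was -5.65, and none of them was called by edgeR.

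Over the 9 planned settings the adjusted p of Krt18 ranged from 0.000391 to 0.0669 and that of Krt222 from 0.00259 to 0.0543 (edgeR or DESeq2 with Benjamini-Hochberg adjustment), each under 0.05 in 8 of 9. Krt8 ranged from 0.00827 to 0.163 and was under 0.05 in 2 of 8, with DESeq2 and with 20 libraries without young sham, and Krt10 ranged from 0.00834 to 0.0964 and was under 0.05 in 1 of 9, with DESeq2 (Benjamini-Hochberg adjustment in each). Each call also depended on single libraries. Krt18 was no longer called without old GFP 1, 2 or 3 (edgeR with Benjamini-Hochberg adjustment, adjusted p = 0.0632, 0.126 and 0.0620) or without young GFP 1, 2, 3 or 4 (0.113, 0.0768, 0.1045 and 0.102), with log2 fold changes of 4.01 to 5.09 over the 8 fits. Krt222 was no longer called without old GFP 1, 2, 3 or 4 (edgeR with Benjamini-Hochberg adjustment, adjusted p = 0.0672, 0.0738, 0.0574 and 0.0612) or without young GFP 1, 2 or 3 (0.0573, 0.0593 and 0.0687), at -1.003 to -0.892. The number called was therefore 1 without old GFP 4 (Krt18) or young GFP 4 (Krt222) and 0 without any of the other 6. In these 8 fits 366 to 679 of all genes were called, against 837 with all libraries. Without the 5 libraries with at least 100 reads of Lor, which leaves young GFP 2 and 4, Krt18 had a log2 fold change of 4.34 and Krt222 of -0.89, and neither was called (edgeR with Benjamini-Hochberg adjustment, adjusted p = 0.244 and 0.194, against 0.0386 to 0.126 and 0.0475 to 0.0738 when single libraries were left out). Krt10 then stood at 0.09 (SE 0.434), and 11 of 12 keratin genes had a positive log2 fold change against 4 of 16 with all libraries, with 3 rather than 13 at an unadjusted p under 0.05. Without the 3 libraries with at least 1000 reads of Alb, old GFP 1 and 4 among them, Krt18 had a log2 fold change of 5.48 and was not called (edgeR with Benjamini-Hochberg adjustment, adjusted p = 0.0671), and 9 of the 10 liver genes were called higher in old GFP when these libraries were kept.

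Oldest-old GFP and young GFP mice differed in the same 2 genes, in 3 epidermal keratins and in Krt23. Krt18 was at 2.69 to 9.68 CPM in oldest-old GFP mice, with a log2 fold change of 5.13 (SE 1.32), and Krt222 at 1.199 to 3.04 CPM, with a log2 fold change of -1.11 (SE 0.242). By edgeR's quasi-likelihood test with Benjamini-Hochberg adjustment their adjusted p were 0.0129 and 0.00465. Young sham, outside this comparison, spanned 0.129 to 24.2 CPM of Krt18, overlapping oldest-old GFP. In Krt222 young sham, at 5.54 to 6.41 CPM, lay above oldest-old GFP. Called lower as well were Krt14 at -7.95 (SE 2.49), Krt5 at -7.54 (SE 2.47), Krt23 at -6.35 (SE 1.999) and Krt10 at -4.39 (SE 1.42), each with overlapping groups (edgeR with Benjamini-Hochberg adjustment, adjusted p = 0.0361, 0.0446, 0.0368 and 0.0412). Of the 4 young GFP libraries, 2 had no read of Krt5, Krt14 or Krt23, and the difference of these genes came from young GFP 1 and 3. Krt8 was higher in each oldest-old library, at 4.19 (SE 1.74), and was not called (edgeR with Benjamini-Hochberg adjustment, adjusted p = 0.110), while Krt80 stood at -0.02 (SE 0.395). Of 16 genes tested, 1 was called higher and 5 lower, compared with 8.8% and 6.08% of all genes tested. The unadjusted p was under 0.05 for 2 higher and 11 lower genes, compared with 29.8% of all genes tested in either direction. The groups did not overlap for 3 of the 16, compared with 18.4% of all genes tested. The median log2 fold change was -4.18 over the 16, again partly set by the filter, and 0.03 over all genes tested. DESeq2 called 8 of the 16 and 3100 of the 17803 genes. In the list of epidermal genes other than keratins, 8 of 20 were called lower, among them Lor at -6.44 (SE 2.14), and none higher.

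Over the planned settings, the adjusted p of Krt18 ranged from 4.67e-05 to 0.0190, of Krt14 from 0.0176 to 0.0457, of Krt5 from 0.0365 to 0.0573, of Krt10 from 0.00370 to 0.0666, of Krt23 from 0.0155 to 0.0503 and of Krt8 from 0.00735 to 0.161 (edgeR or DESeq2 with Benjamini-Hochberg adjustment). Krt10 was under 0.05 in 7 of 9 settings, Krt5 in 7 of 8, Krt23 in 6 of 7 and Krt8 in 3 of 9. Epidermal calls between these groups depended on single libraries of both groups. Without oldest-old GFP 1, 2, 3 or 4, or without young GFP 1 or 3, the number called fell to 2, which were Krt18 and Krt222, and without young GFP 2 or 4 it was 7. In these 8 fits 1674 to 2755 of all genes were called, against 2649 with all libraries. Leaving out young GFP 3 moved Krt5 to -5.50, Krt14 to -5.73 and Krt10 to -3.11 (edgeR with Benjamini-Hochberg adjustment, adjusted p = 0.145, 0.129 and 0.140). Leaving out oldest-old GFP 1, 2, 3 or 4 or young GFP 1 in turn gave Krt5 adjusted p of 0.103, 0.0870, 0.0730, 0.104 and 0.0661, and Krt23 0.0885, 0.0707, 0.0799, 0.0915 and 0.0667 (edgeR with Benjamini-Hochberg adjustment). For Krt14 the same fits gave 0.0875, 0.0732, 0.0644, 0.0907 and 0.05465, and for Krt10 0.0946, 0.0808, 0.0588, 0.104 and 0.06997 (edgeR with Benjamini-Hochberg adjustment, adjusted p). Without the 5 libraries rich in Lor, Krt10 stood at 0.09 (SE 0.434), and Krt80 was the only one of 12 tested keratin genes called, at 1.04 (SE 0.257). Of all 18343 genes tested in that fit, 848 were called. The log2 fold change was then positive for 11 of 12 against 4 of 16 with all libraries, and the unadjusted p was under 0.05 for 3 rather than 13. Krt5 and Krt14 stood at 5.56 and 4.59 there, fitted values against young GFP 2 and 4 at 0 reads that depend on the prior count and are not bounds. In that fit Krt18 had a log2 fold change of 4.69 and Krt222 of -1.07, and their adjusted p were 0.108 and 0.0538, against 0.0333 for Krt80 (edgeR with Benjamini-Hochberg adjustment). With single libraries left out in turn, Krt18 ranged from 0.0154 to 0.0435, Krt222 from 0.00174 to 0.0142 and Krt80 from 0.490 to 0.991 in adjusted p by edgeR with Benjamini-Hochberg adjustment.

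Oldest-old GFP and old GFP mice were compared to see whether keratins differed between the older ages. Krt18 was at 2.69 to 9.68 CPM in oldest-old GFP and at 1.69 to 12.8 CPM in old GFP, and the log2 fold change was 0.35 (SE 0.952). No keratin gene was called by edgeR's quasi-likelihood test, compared with 0.00562% of all genes tested, and none had an unadjusted p under 0.05, compared with 12% of all genes tested. DESeq2 called none of the 16 and 120 of the 17803 genes. For none of the 16 did the groups fail to overlap, compared with 5.65% of all genes tested. The median log2 fold change was -0.01 over the 16 and 0.02 over all genes tested.

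**Figure D5:**
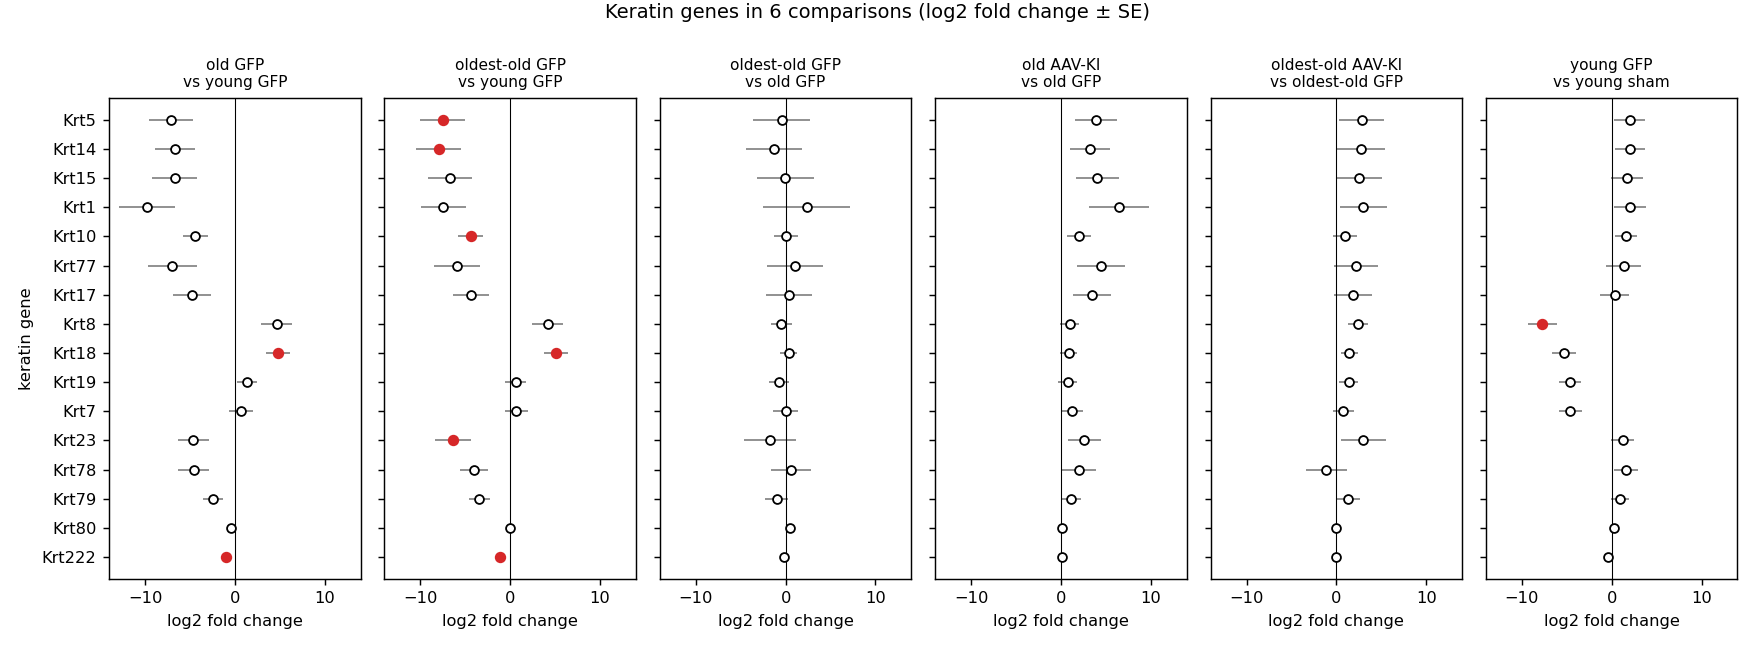
Log2 fold change of the 16 tested keratin genes in 6 comparisons, with bars of 1 SE, filled where the adjusted p (edgeR, Benjamini-Hochberg) was under 0.05. Filled points are Krt18 and Krt222 for both older GFP groups against young GFP, Krt5, Krt14, Krt10 and Krt23 for oldest-old GFP against young GFP, and Krt8 for young GFP against young sham.

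AAV-Kl mice were compared with GFP mice of the same age to see whether the vector that carries Klotho changed keratin RNA. In old mice, Krt18 was at 3.75 to 26.8 CPM with AAV-Kl and 1.69 to 12.8 CPM with GFP, a log2 fold change of 0.85 (SE 0.951), and Krt8 at 0.280 to 3.35 against 0.229 to 0.959 CPM, a log2 fold change of 0.96 (SE 1.09). Krt77 had a log2 fold change of 4.46 (SE 2.68) and Krt5 of 3.92 (SE 2.35), with the reads of AAV-Kl mice lying mainly in old AAV-Kl 2. Without old AAV-Kl 2, Krt77 stood at -4.18 and Krt5 at -0.46, and without old AAV-Kl 3, Krt18 stood at -0.23. No keratin gene was called by edgeR's quasi-likelihood test, compared with 0% of all genes tested, and none had an unadjusted p under 0.05, compared with 2.15% of all genes tested. DESeq2 called 0 of the 17803 genes and gave 1 keratin gene an unadjusted p under 0.05. The groups overlapped for each of the 16 genes, compared with 1.68% of all genes tested that did not overlap. All 16 fold changes were positive, with a median log2 fold change of 1.99 against 0.01 over all genes tested, and 5 of 16 were positive without old AAV-Kl 2 and 4 of 12 without the libraries rich in Lor.

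In oldest-old mice, Krt18 was at 7.98 to 29.9 CPM with AAV-Kl and 2.69 to 9.68 CPM with GFP, and its log2 fold change was 1.42 (SE 0.9501). Krt8 was higher in each of the 4 AAV-Kl libraries, at 0.854 to 5.85 CPM, than in each of the 4 GFP libraries, at 0.234 to 0.851 CPM. The nearest were oldest-old AAV-Kl 4 with 44 reads (0.8542 CPM) and oldest-old GFP 3 with 39 reads (0.8508 CPM). That gap lies within counting error. The log2 fold change of Krt8 was 2.43 (SE 1.12), with an unadjusted p of 0.0427 and an adjusted p of 0.602 by edgeR's quasi-likelihood test with Benjamini-Hochberg adjustment, so it was not called. Krt8 was the 1 of 16 keratin genes with an unadjusted p under 0.05, compared with 8.08% of all genes tested. No keratin gene was called by edgeR, compared with 0.0112% of all genes tested. DESeq2 called none of the 16 and 25 of the 17803 genes, and gave 1 keratin gene an unadjusted p under 0.05. When any 1 of the 4 GFP libraries or AAV-Kl 2 or 3 of this age was left out, and with the replicate number as a block in the model, no keratin gene had an unadjusted p under 0.05 by edgeR. There were 2 such genes without the libraries rich in Epcam (14 tested), with only the 2 compared groups (6 tested) and with 20 libraries without young sham (14 tested). Krt8 was the 1 of 16 genes without overlap, by the narrow gap given above, compared with 2.65% of all genes tested. The log2 fold change was positive for 13 of 16, with a median of 1.66 against 0.01 over all genes tested, but for 8 of 16 without oldest-old AAV-Kl 4 and for 6 of 12 without the libraries rich in Lor. Without the libraries with at least 50 reads of Epcam, oldest-old AAV-Kl 2 among them, Krt8 stood at 2.45 (SE 0.774) and Krt18 at 1.51 (SE 0.683).

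Whether the AAV-Kl response differed between old and oldest-old mice was tested by the interaction of the 2 comparisons. No keratin gene was called, compared with 0.00562% of all genes tested, and none had an unadjusted p under 0.05 by edgeR's quasi-likelihood test, compared with 5.76% of all genes tested. DESeq2 called none of the 16 and 1 of the 17803 genes, and gave no keratin gene an unadjusted p under 0.05. The lowest adjusted p of a keratin gene was 0.930 (edgeR with Benjamini-Hochberg adjustment), and the log2 difference was positive for 5 of 16. This balance turned with the libraries used, to 15 of 16 without old AAV-Kl 2, 10 of 12 without the libraries rich in Lor and 12 of 14 without those rich in Epcam. For Krt8 the response was thus not shown to differ between ages.

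Between young GFP and young sham mice, Krt8 was the 1 keratin gene called. It was at 0 to 0.0482 CPM in young GFP and 0.0592 to 19.8 CPM in young sham, with a log2 fold change of -7.73 (SE 1.63), and was called lower (edgeR's quasi-likelihood test with Benjamini-Hochberg adjustment, adjusted p = 0.0370). Krt18 had a log2 fold change of -5.31 (SE 1.32), Krt19 of -4.64 (SE 1.198) and Krt7 of -4.60 (SE 1.27), and none of the 3 was called (edgeR with Benjamini-Hochberg adjustment, adjusted p = 0.0789, 0.0885 and 0.114). The simple keratin Krt23 had a log2 fold change of 1.21 (SE 1.24) and was not called either (edgeR with Benjamini-Hochberg adjustment, adjusted p = 0.674). Most of these reads in the young sham group came from young sham 2 and 4, while young sham 1 and 3 had 3 reads of Krt8 each, and 6 and 9 of Krt18. Krt222 was lower in each young GFP library than in each young sham library, at -0.42 (SE 0.236), without passing the test (edgeR with Benjamini-Hochberg adjustment, adjusted p = 0.450). Of 16 genes tested, 1 was called lower, compared with 0.191% of all genes tested, and 4 were lower at an unadjusted p under 0.05, compared with 13.4% of all genes tested in either direction. The groups did not overlap for 2 of the 16, compared with 9.76% of all genes tested. For Krt8, 1 of these 2, the separation from young sham 1 and 3 lay within counting error. The 0 reads of young GFP 1 allow 0.0702 CPM, above the 0.0644 and 0.0592 CPM of young sham 1 and 3. The median log2 fold change was 1.07 over the 16 and -0.03 over all genes tested, and DESeq2 called 4 of the 16 and 290 of the 17803 genes. The log2 fold change was positive for 11 of 16, for 5 of 16 without young GFP 3 and for 0 of 12 without the libraries rich in Lor, and without young sham 4 the unadjusted p was under 0.05 for 13 of 16.

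Over the planned settings the adjusted p of Krt8 ranged from 4.56e-06 to 0.0647 (edgeR or DESeq2 with Benjamini-Hochberg adjustment), under 0.05 in 6 of 7. The call of Krt8 between young groups was lost when any 1 of 6 libraries was left out. Leaving out young GFP 1, 2, 3 or 4 gave adjusted p of 0.104, 0.107, 0.0631 and 0.171, and leaving out young sham 2 or 4 gave 0.0911 and 0.0920 (edgeR with Benjamini-Hochberg adjustment), with log2 fold changes between -8.03 and -5.99. In the same 6 fits 42, 33, 114, 10, 1 and 69 of all genes were called, in that order, against 84 with all libraries. Without young sham 1, Krt18 was called as well, at -5.69 (edgeR with Benjamini-Hochberg adjustment, adjusted p = 0.0395), and without young sham 3 the number called was 1. Without the 5 libraries with at least 50 reads of Epcam, young sham 2 and 4 among them, Krt8 stood at -1.27 (SE 1.99), Krt18 at 0.43 (SE 1.80), Krt19 at -0.33 (SE 0.650) and Krt7 at -1.75 (SE 0.991), and no keratin gene was called, with 5 of 14 at an unadjusted p under 0.05. In the epithelial junction list, whose tested genes are 4 of 5, none was called between young GFP and young sham, and the median log2 fold change was -2.18. The median over the 10 liver genes was -4.50, and Csn3 stood at -5.98 (SE 2.07), also without a call. The part of epithelial, mammary and liver cells in this difference was not tested.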

How the data were processed

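Each count was made by the authors, who aligned reads with STAR 2.7.0a to GRCm38; the deposited column without regard to strand was used. Of all reads, 23.0 to 25.3% were not on genes. Genes were annotated by GENCODE M21, and 55144 of 55385 identifiers matched without their version. With R 4.3.3, edgeR 4.0.16, DESeq2 1.42.0, Python 3.11.15, scipy 1.17.1, pandas 2.3.3 and matplotlib 3.10.9, filterByExpr kept 17803 genes, TMM scaled the libraries to CPM, and 1 quasi-likelihood model with 18 residual degrees of freedom fitted the 6 groups. The code was tested on simulated data. Named genes were the 10 keratins with most reads, the top 2 of each class, Krt7, Krt8, Krt18, Krt19 and those called. Lists covered epidermis, hair follicle, sebaceous gland, melanocyte, epithelial junction, mammary gland, liver, mesothelium and muscle fibre. Members and lists were chosen with earlier results of these data known. Alternatives changed the test, filter, scaling, strand column, libraries and block.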

Additional observations from a re-analysis of the deposited data

Results flagged for a closer look

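In 108 groups of 4 libraries over 18 measures, the distance of an extreme library from its neighbour was compared with the range of the group (Dixon's ratio), and 38 groups had a library past the limit. For normally distributed values about 1 in 20 groups would by chance. The CPM values here held many zeros and a few high libraries, so that share is no measure for them. Nor were the 38 independent of each other. The epidermal sum holds Krt5, Krt14, Krt1, Krt10 and Krt77, which were also measured singly. Of the 38, 10 lay in old AAV-Kl 2 and 9 in young sham 4. The library past the limit was the highest of its group except where said, values are CPM, and the causes were not tested.

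The summed epidermal keratins stood apart in young sham 4 (116.95), old AAV-Kl 2 (57.038), oldest-old GFP 3 (5.0391) and oldest-old AAV-Kl 4 (21.86). The hair keratins did so in young sham 4 (0.45846). The list of other epidermal genes did so in young sham 4 (156.68) and old AAV-Kl 2 (124.54), the epithelial junction list in old AAV-Kl 2 (8.0316), and the liver list in old GFP 1 (896.17) and old AAV-Kl 4 (139.6).

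Krt5 stood apart in young sham 4 (20.631), oldest-old AAV-Kl 4 (2.9703) and old AAV-Kl 2 (9.1875), and Krt14 in young sham 4 (12.99) and old AAV-Kl 2 (5.6002). Krt1 did so in young sham 4 (10.908), old AAV-Kl 2 (4.5838), oldest-old GFP 3 (0.26177) and oldest-old AAV-Kl 4 (2.1161). Its value in old GFP 4 (0.04578) also passed the limit, but was 2 reads against 0 in the other libraries, below the 0.0687 CPM that a count of 0 allows there, so the ratio was fixed by the zeros and shows no difference. Krt10 did so in young sham 4 (28.062), old AAV-Kl 2 (15.924), oldest-old GFP 3 (2.2469) and oldest-old AAV-Kl 4 (6.6008). Krt77 did so in young sham 4 (32.99), old GFP 4 (0.70959), old AAV-Kl 2 (15.306), oldest-old GFP 3 (1.527) and oldest-old AAV-Kl 4 (6.4455).

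Krt18 stood apart in old AAV-Kl 3 (26.829), and Krt8 was lowest in old GFP 4 (0.2289). Krt19 stood apart in old GFP 3 (2.7636), oldest-old AAV-Kl 2 (4.7779) and old AAV-Kl 2 (6.0187), Krt7 in oldest-old AAV-Kl 2 (0.93587) and old AAV-Kl 2 (1.2556), Krt80 in young sham 4 (8.9782) and Krt222 in old AAV-Kl 3 (4.1321).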

How the results depend on the processing

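The number of keratin genes called in old GFP against young GFP (2 of 16) was 5 with DESeq2, 1 with the replicate number as a replicate block, and 0, 1 and 0 without the libraries rich in Lor, Epcam and Alb. Calls among all genes went from 837 to 1226, 710, 162, 398 and 219, in the same order. In young GFP against young sham the number of keratin genes called (1 of 16) was 4 with DESeq2 and 0 with the replicate block, with only the 2 compared groups (10 tested, Krt8 not among them), and without the libraries rich in Lor or Epcam. All-gene calls there went from 84 to 290, 69, 174, 18 and 3. In oldest-old GFP against young GFP the number of keratin genes called (6 of 16) was 9 with the replicate block, 3 of 6 tested with only the 2 groups, 1 without the libraries rich in Lor and 4 of 14 without those rich in Epcam (Krt18, Krt222, Krt10 and Krt8). All-gene calls there went from 2649 to 2510, 1249, 848 and 2036. The replicate numbers do not pair the samples, and same-number correlations ran from -0.52 to 0.28. The robust option, DESeq2's size factors in edgeR and the strand sum left the 3 keratin counts the same, and the median log2 fold change of all genes moved by under 0.1 with the size factors. Without the filter the keratin counts were 2, 4 and 1 of 19 in old GFP against young GFP, oldest-old GFP against young GFP and young GFP against young sham. Of all 37001 genes then tested, 553, 1755 and 59 were called, in that order. The fit of 20 libraries without young sham gave 2 of 14 in old GFP against young GFP, where Krt8 was called in place of Krt222, and 7 of 14 in oldest-old GFP against young GFP, and it was not possible for young GFP against young sham. That fit called 613 and 2263 of all 17465 genes in these 2 comparisons.

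Some log2 fold changes changed sign. In oldest-old GFP against young GFP, Krt80 was 0.0237 with the strand sum, 1.04 without the libraries rich in Lor and 0.44 without those rich in Epcam, and without the Lor libraries Krt10 was 0.0949, Krt5 5.56 and Krt14 4.59. Krt10 in old GFP against young GFP was then 0.0887. In old AAV-Kl against old GFP, Krt77 was -4.21 and Krt5 -0.60 without the Lor libraries, and -4.18 and -0.53 without the Epcam libraries. Krt18 was 0.43 in young GFP against young sham without the Epcam libraries, and -0.36 in oldest-old GFP against old GFP without the Alb libraries. The cause was not tested.

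With 1 library left out at a time, 0 to 1 keratin genes were called in old GFP against young GFP, 2 to 7 in oldest-old GFP against young GFP and 0 to 2 in young GFP against young sham. Of all genes, 366 to 679, 1674 to 2755 and 1 to 114 were called in the same fits, in that order. Krt80 in oldest-old GFP against young GFP ran from -0.28 to 0.44. In old AAV-Kl against old GFP, Krt18 ran from -0.23 to 1.62, Krt77 from -4.18 to 8.69 and Krt5 from -0.46 to 4.99.

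With 4 libraries per group, reads of several genes lay in 1 or 2 libraries of a group. Exclusions by Lor, Epcam and Alb were chosen after seeing the data and leave as few as 2 libraries per group. Counts without regard to strand include antisense reads. Vector and age were not crossed with sham, and the sham treatment was not described. Cell types were not counted, and tissue sections were not available.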
